A study of Drosophila melanogaster with 69 samples.

Results

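The 200 long noncoding RNA (lncRNA) genes with the highest mean level in wild-type testes of day 1 were followed across genotype, tissue and day of adulthood in the Drosophila melanogaster gonad. They were chosen from 1909 genes whose FlyBase symbol starts with lncRNA:, with roX1 and roX2 left out, by their mean TPM (reads per transcript length, scaled to the same total in every library) over the 3 wild-type testis libraries of day 1. All 200 carry the biotype ncRNA in the Ensembl annotation, as do the other 1709 lncRNA genes listed. Because day 1 wild-type libraries chose the genes, the levels at day 1 are given as a description and carry no test. The genes just inside the limit were lncRNA:CR46141 at 21.86 TPM, lncRNA:CR46414 at 21.69 TPM and lncRNA:CR44823 at 21.60 TPM, and those just outside were lncRNA:CR43682 at 21.51 TPM, lncRNA:CR44396 at 21.49 TPM and lncRNA:CR44667 at 21.40 TPM.

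Long noncoding RNAs are transcripts without a long open reading frame, and in flies many of them are transcribed in the testis, above all in the male germline. Spermatocytes switch on a large programme of testis-specific transcripts under the meiotic arrest genes, and many of these RNAs are stored until the spermatids elongate. Most of the genes described here carry only a computed CR symbol, and no role is given for them below.

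The series compared testes and ovaries of wild-type flies (strain Oregon R, genotype WT) with those of strain chinmoST, at days 1, 3, 5, 7, 9 and 11 of adulthood. The chinmoST samples are labelled as carrying Sod1[X-39] and e[1] over the balancer TM3 with Sb[1] and Ser[1], so the strain, these alleles and the chinmo mutation cannot be told apart. Chinmo is a transcription factor that keeps the somatic cyst stem cells of the testis male, and chinmoST is a mutation under which that lineage loses it. There were 36 testis and 33 ovary libraries, 3 in each of the groups other than wild-type ovaries of days 1, 7 and 11, which had 2, and each was made from pooled gonads of many flies. Polyadenylated RNA was sequenced, so transcripts without a poly(A) tail are poorly represented.

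Total estimated counts were between 32462418 and 181988641 per library. In testes, 4 libraries stood apart from their groups before any comparison: wild-type replicate 1 of days 3, 5, 7 and 9. In these 4 the list without the short genes lncRNA:CR34335 and lncRNA:CR40469 took between 1.576% and 1.695% of all counts, against 1.177% to 1.351% in the other 14 wild-type testis libraries, so results are also given without them where that changed what was found. Spermatid markers summed to 2503 to 3086 TPM in these 4, against 5154 to 6823 TPM in the other 14. Genes of germline stem cells and spermatogonia were at 17.4 to 31.26 TPM against 36.53 to 51.53 TPM. Early cyst genes were at 12.81 to 17.9 TPM against 24.71 to 31.29 TPM. Sperm protein genes were higher, at 21626 to 29268 TPM against 14020 to 18383 TPM. In ovaries, 5 of the 13 wild-type libraries of days 3 to 11 stood apart: replicate 3 of days 3 and 5, replicate 2 of day 7 and both of day 11. In these 5 the list without the short pair took between 0.006304% and 0.01% of all counts, against 0.04022% to 0.11% in the other 8, and the short pair summed to 35905 to 63935 TPM, against 5119 to 23864 TPM. Marker lists of somatic and germline cells were low in them too. Muscle genes were at a summed 14.57 to 37.95 TPM against 64.72 to 396.8 TPM, and early cyst genes at 21.56 to 44.21 TPM against 80.08 to 131.6 TPM. Ovary and follicle cell genes were at 1495 to 16615 TPM against 18708 to 61589 TPM. Genes of germline stem cells and spermatogonia were at 272.27 to 318.06 TPM against 347.99 to 602.28 TPM. Ovary results are therefore also given without these 5, an alternative chosen after the data were seen. The chinmo transcript itself did not separate the groups, at 204 to 526 CPM (counts scaled to the same library total, with TMM factors) in the 18 wild-type testis libraries and 225 to 466 CPM in the 18 chinmoST testis libraries. Markers of the accessory gland, a male organ that lies next to the testis, were at a high summed level in some testis libraries of both genotypes, and the values that touch a result are given beside it.

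The 200 levels were very unequal. The 12 genes over 1000 TPM in the day 1 wild-type libraries made up 67.9% of the summed TPM, 29 genes lay between 100 and 1000 TPM, and 159 lay under 100 TPM, with a median of 43.5 TPM. In order, the most abundant were lncRNA:CR32658 (3976 TPM), lncRNA:CR32657 (3314 TPM), lncRNA:CR32661 (2824 TPM), lncRNA:CR34335 (2147 TPM), lncRNA:CR32652 (1955 TPM), lncRNA:CR32660 (1798 TPM), lncRNA:CR40469 (1772 TPM), lncRNA:CR42767 (1703 TPM), lncRNA:CR44455 (1645 TPM) and lncRNA:CR32690 (1269 TPM). Neighbours in this order need not differ, since lncRNA:CR32657 alone ranged from 1465 to 5748 TPM over the 3 libraries. TPM divides by an effective length, and for 6 of the 200 genes that length was under 50 nucleotides, lncRNA:CR34335 and lncRNA:CR40469 among them, so their TPM is the least certain.

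The X chromosome held 31 of the 200 genes (15.5%, against 11.8% of the other lncRNA genes), and these were concentrated at the top of the order. Of the 12 most abundant, 10 were X-linked, and of the 20 most abundant 14 were, whereas 17 of the other 180 were. The autosomes held 50 genes on 2L, 28 on 2R, 45 on 3L, 43 on 3R and 3 on chromosome 4. In coordinates of the Ensembl annotation (assembly BDGP6, which the submitters' notes call dm6), lncRNA:CR32657 (X, 12087211 to 12087695, plus strand) and lncRNA:CR32658 (X, 12091264 to 12092272, plus strand) lie 3.6 kb apart inside the span of Ten-a. A second X-linked group holds lncRNA:CR32661, lncRNA:CR43157 and lncRNA:CR32660, which follow each other on the minus strand between 11917806 and 11920574 with gaps of 0.4 and 0.3 kb. In all, 18 of the 200 genes fell in 10 adjacent pairs no more than 5 kb apart.

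Gene structure set the 200 little apart from other lncRNA genes. A single exon was annotated for 116 of them (58.0%, against 64.4% of the others), and the median length was 583 nucleotides, against 604. Exons of 17 genes (8.5%, against 15.4%) overlap exons of another gene, and 74 (37.0%, against 28.6%) lie within or touch the span of a protein-coding gene. A divergent protein-coding start within 500 nucleotides was found for 8 genes (4.0%, against 8.31%), and none of the 200 holds a snoRNA gene. Whether counting used the strand is not given in the sources used here, so the counts of the 17 overlapping genes are uncertain. Among the most abundant genes, this touches lncRNA:CR32660, which overlaps Sclp on the same strand, and lncRNA:CR44455, which overlaps lncRNA:CR44456 on the opposite strand.

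The genes were close to silent in ovaries. Over wild-type days 3, 5 and 7 (9 testis libraries, which the genotype comparisons also used, against 8 ovary libraries), 197 of the 200 were lower in ovaries by the quasi-likelihood test of edgeR (adjusted p under 0.05 and at least 1.5-fold), where 53.0% of all 15293 genes tested were lower, and 2 were higher, where 33.1% were. The libraries did not overlap, with the ovary lower, for all but 4 of the 200, against 42.9% of all genes tested, and none lay wholly higher (24.5%). Since the rule asked for a high level in testes, a lower level elsewhere was favoured by the choice, and the sizes say more than the counts. A mean ovary level under 1 TPM was found for 193 genes and under 0.1 TPM for 174, while the lowest mean over the 9 testis libraries was 18.1 TPM. Pooled over the 8 ovary libraries, 60 genes had no count at all and 68 had 1 to 3 of the 729887825 counts. With genes at or under 3 counts set to that floor (0.00411 CPM), the median testis level was 3440-fold above that of ovaries. Of these counts, 399746712 came from the 3 libraries that stand apart. Over the other 5 ovary libraries 79 genes had no count and 61 had 1 to 3 of 330141113 counts, a mean under 1 TPM was found for 193 genes, and the median was 1654-fold with a floor of 0.00909 CPM.

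**Figure D1:**
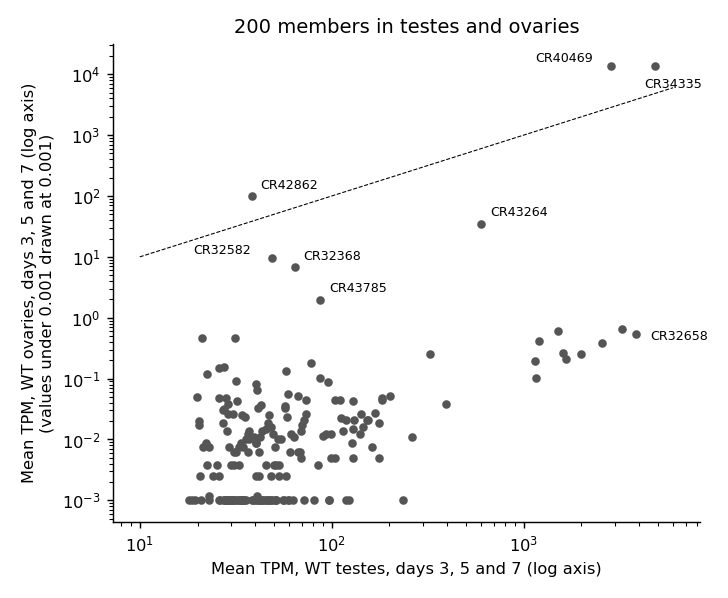
Mean TPM of each of the 200 genes in wild-type testes (horizontal axis, 9 libraries of days 3, 5 and 7) against wild-type ovaries (vertical axis, 8 libraries of the same days), both on log axes, with means under 0.001 TPM drawn at 0.001 and the line of equal levels dashed; each point is a gene. In ovaries 174 genes are under 0.1 TPM, and lncRNA:CR40469, lncRNA:CR34335 and lncRNA:CR42862 are above the line.

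Only 7 genes had a mean ovary level of 1 TPM or more. The short X-linked lncRNA:CR40469 had a mean of 13806 TPM in ovaries and 2840 TPM in testes, and lncRNA:CR34335 had 13740 TPM in ovaries and 4858 TPM in testes. Both ovary means rest on the 3 libraries that stand apart: in the other 5 they were 4522 TPM for lncRNA:CR40469 and 8476 TPM for lncRNA:CR34335. The testis mean of lncRNA:CR34335 rests on wild-type replicate 1, and was 2400.0 TPM in the other 6 libraries. Ovary libraries differed widely for both, from 1076 to 32854 TPM for lncRNA:CR40469 and from 4043 to 31081 TPM for lncRNA:CR34335 over wild-type days 3 to 11. By edgeR, lncRNA:CR40469 was higher in ovaries (log2 fold change 2.07, SE 0.497, adjusted p = 0.000163), and lncRNA:CR34335 did not pass the test (0.98, SE 0.496, adjusted p = 0.0597). Neither direction held over the choice of libraries. Without the 5 ovary libraries that stand apart, lncRNA:CR40469 was at -0.42 (adjusted p = 0.386) and lncRNA:CR34335 at -0.31 (adjusted p = 0.599), and without wild-type testis replicate 1 of days 3 to 9 lncRNA:CR34335 passed the edgeR test (2.76, adjusted p = 9.79e-07). The third gene at a higher mean level in ovaries was lncRNA:CR42862, at 100.8 TPM against 38.3 TPM in testes (log2 fold change 0.81, SE 0.350, adjusted p = 0.0286 by edgeR). Its ovary mean was 12.72 TPM in the 3 libraries that stand apart and 153.7 TPM in the other 5, and the log2 fold change was 1.43 (adjusted p = 8.54e-06) without the former. It did not pass the test without wild-type testis replicate 1 of days 3 to 9 (0.68, adjusted p = 0.107) or by DESeq2 (0.17, adjusted p = 0.638). It shares exon sequence with CG33229 on the same strand, and reads of the pair may have been split between them.

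The remaining genes seen in ovaries had lower mean TPM there than in testes. Mean ovary levels were 35.3 TPM for lncRNA:CR43264 (603 TPM in testes), 9.64 TPM for lncRNA:CR32582 (49.0 TPM), 6.76 TPM for lncRNA:CR32368 (64.0 TPM) and 1.99 TPM for lncRNA:CR43785 (86.8 TPM). Under the correction for gene length, the direction flipped for lncRNA:CR32582 (log2 fold change 1.38, against -2.86) and lncRNA:CR32368 (0.47, against -3.86) by edgeR. The eighth was lncRNA:CR32657, at 0.663 TPM against 3270 TPM.

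In wild-type testes the summed level of the genes stayed nearly level with age, and in chinmoST testes it fell from day to day. The sum is given over the list without lncRNA:CR34335 and lncRNA:CR40469, whose high and variable TPM would otherwise mask the rest; this choice was made after their values were seen. Wild-type testes held 32420 ± 2220 TPM (SD, n = 3) at day 1, 32610 ± 1950 TPM at day 3 and 32000 ± 362 TPM at day 5. They were at 32100 ± 2960 TPM at day 7, 31630 ± 1260 TPM at day 9 and 30340 ± 591 TPM at day 11. ChinmoST testes began at 36500 ± 1620 TPM at day 1 and were at 34740 ± 1680 TPM at day 3 and 31390 ± 2220 TPM at day 5. They then held 25320 ± 1830 TPM at day 7, 20410 ± 1180 TPM at day 9 and 16000 ± 1400 TPM at day 11. At days 9 and 11 the 6 chinmoST libraries, which reached at most 21737 TPM, lay below every wild-type testis library, the lowest of which was at 29325 TPM. With all 200 genes in the sum, chinmoST was at 90.4% of wild-type over days 9 and 11, and at 58.8% without the pair of short genes. In bulk RNA from a whole organ, fewer cells of a type and less RNA per cell cannot be told apart, here or in any comparison that follows.

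**Figure D2:**
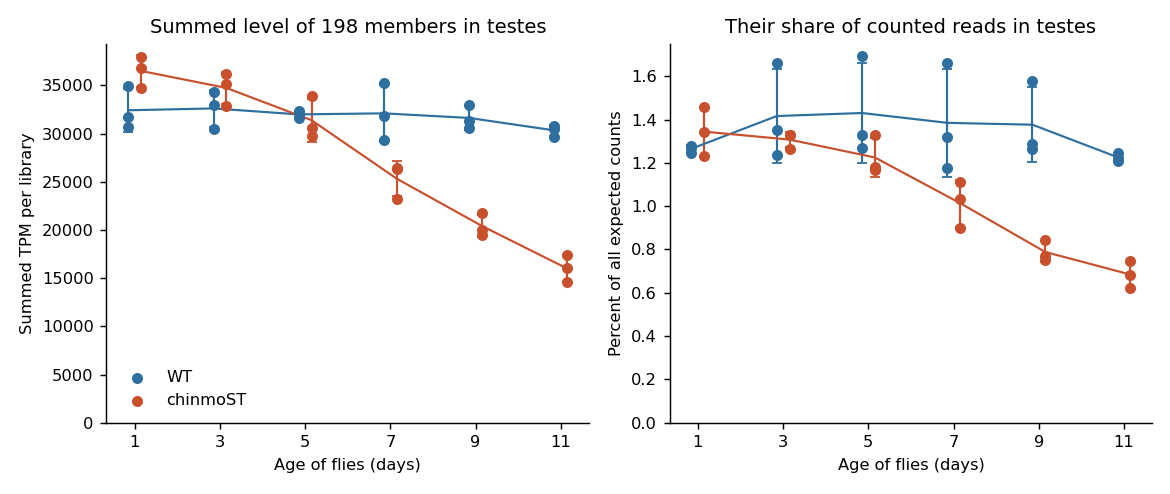
Summed TPM per library of the list without lncRNA:CR34335 and lncRNA:CR40469 in testes (left) and their share of all expected counts in percent (right), by age in days; points are libraries, lines join group means and bars are the SD (n = 3). Wild-type testes stay between 29325 and 35208 TPM while chinmoST testes fall from a mean of 36500 TPM at day 1 to 16000 TPM at day 11, and the wild-type points that stand high in the share are replicate 1 of days 3 to 9.

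The first comparison asked which of the genes differ between chinmoST and wild-type testes once the mutant phenotype is advanced, at days 9 and 11 (6 against 6 libraries). Of the 200 genes, 170 fell in chinmoST testes and 4 rose by edgeR, where 31.4% of all 14910 genes tested fell and 34.1% rose. The median log2 fold change was -1.23 over the 200 genes and 0.09 over all genes tested. The 6 chinmoST libraries lay wholly below the 6 wild-type libraries for 159 genes (27.2% of all genes tested) and wholly above for 1 (30.6%). By size, 24 genes were lower by 4-fold or more, 112 by 2-fold to 4-fold and 34 by 1.5-fold to 2-fold, and 21 of the 26 genes that did not pass the test had a log2 fold change below 0.

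Other testis transcripts moved too. Of the 1132 other lncRNA genes tested, 598 fell and 159 rose, with a median log2 fold change of -0.79. A set of 1797 other genes with at least 20 TPM in wild-type testes and under 1 TPM in ovaries, drawn up after the data were seen, had 1660 lower and 20 higher genes and a median of -1.28, close to that of the 200. Among the fixed marker lists, all 7 spermatid genes (soti, schuy and the cup genes among them) fell, with a median of -1.28 and a summed level of 2837 to 5896 TPM in wild-type and 2333 to 3003 TPM in chinmoST testes. The lowest wild-type sum was that of replicate 1 of day 9, and the next was 5154 TPM. All 6 genes of sperm proteins (dj, djl and the Mst genes) fell as well, with a median of -1.45 and summed levels of 15912 to 21626 TPM and 5845 to 9781 TPM. Of the 11 meiotic arrest genes, which drive spermatocyte transcription, 5 fell and none rose.

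Some markers of other cells moved in the opposite direction. Of 4 genes of germline stem cells and spermatogonia, vas, bam and zpg rose, 2 of 3 early cyst genes rose, and 7 of 8 ovary and follicle cell genes rose, from a summed 2.83 to 9.46 TPM in wild-type to 10.03 to 89.78 TPM in chinmoST testes. All 4 muscle genes rose, from a summed 99.05 to 126.5 TPM to 192.6 to 436.9 TPM. Of 3 fat body genes, apolpp rose (log2 fold change 0.81) and Lsp2 fell (-1.16), and none of the 7 accessory gland genes passed the test. No gene of these lists was at 0 in all libraries of either group. The part of these cell types in the levels of the 200 genes was not tested.

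**Figure D3:**
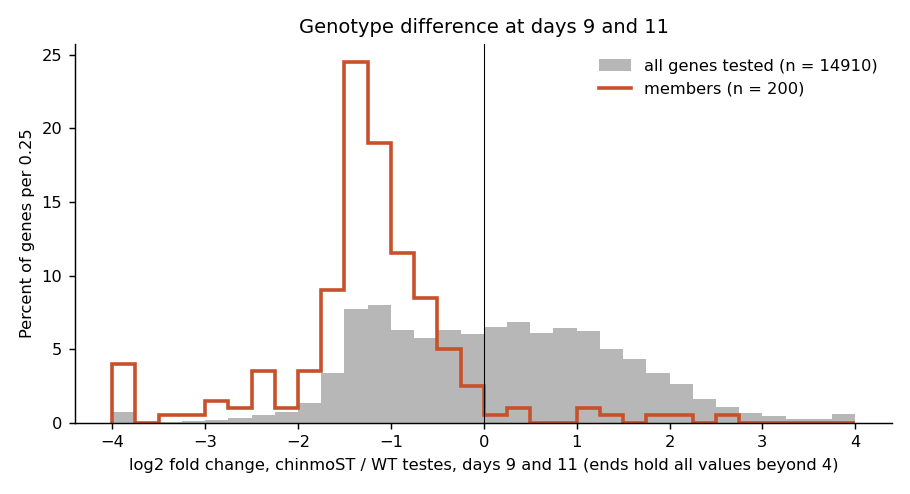
Distribution of log2 fold changes (horizontal axis; chinmoST over wild-type testes, days 9 and 11, edgeR) for the 200 genes (orange line) and all 14910 genes tested (grey), as the percentage of each set per step of 0.25; the end steps hold all values beyond 4 in size. The 200 genes form 1 peak around their median of -1.23, and all genes spread to both sides of their median of 0.09.

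The fall did not vary much with the features of the genes. Its median log2 fold change was -1.07 on the X (25 of 31 genes lower), -1.32 on 2L (43 of 50), -1.14 on 2R (23 of 28), -1.12 on 3L (35 of 45), -1.31 on 3R (41 of 43) and -1.16 on chromosome 4 (3 of 3). By number of exons the medians were between -1.08 and -1.27, and over 5 classes of abundance they were between -1.13 and -1.28. The nearest protein-coding gene moved less uniformly: of 166 lower genes with a tested neighbour, the neighbour was lower for 62, higher for 52 and not called for 52. For the other lncRNA genes, of 559 lower ones with a tested neighbour, it was lower for 232, higher for 162 and not called for 165.

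The most abundant X-linked genes fell by about 2-fold. For lncRNA:CR32658, the 6 wild-type libraries of days 9 and 11 were at 3321 to 3794 TPM (median 3498 TPM) and the 6 chinmoST libraries at 1774 to 3076 TPM (median 2310 TPM). The groups did not overlap (log2 fold change -0.85, SE 0.128, adjusted p = 1.12e-06 by edgeR). For lncRNA:CR32661, wild-type libraries were at 2316 to 2608 TPM and chinmoST libraries at 1142 to 1723 TPM, again with no overlap (-1.04, SE 0.11, adjusted p = 2.11e-09). Its neighbour lncRNA:CR32660 lay at 1656 to 2028 TPM in wild-type and 738.9 to 1251 TPM in chinmoST testes (-1.11, SE 0.176, adjusted p = 2.32e-06).

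The same order of groups, with no overlap in TPM, held for the next genes of the list. lncRNA:CR32652 was at 1727 to 2062 TPM in wild-type and 831.6 to 1053 TPM in chinmoST testes (log2 fold change -1.17, SE 0.115), lncRNA:CR42767 at 1449 to 1664 TPM and 787.9 to 1229 TPM (-0.88, SE 0.105), and lncRNA:CR32690 at 996 to 1419 TPM and 530.4 to 639.1 TPM (-1.39, SE 0.094). The largest fall among the 10 most abundant was that of lncRNA:CR44455, from 1340 to 2052 TPM in wild-type to 564.5 to 847.6 TPM in chinmoST testes (-1.61, SE 0.135, adjusted p = 2.72e-11 by edgeR). The second most abundant gene behaved differently: lncRNA:CR32657 spread over 1595 to 5262 TPM in wild-type and 945.3 to 3897 TPM in chinmoST testes, and these ranges overlap (-0.66, SE 0.413, adjusted p = 0.150).

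A smaller group differed far more, and some of its genes were at or near 0 in chinmoST testes at every age. The extreme was lncRNA:CR40465 (2L, 20253816 to 20254449, minus strand), a single-exon gene at 20.19 to 25.49 TPM (median 22.36 TPM) in the 6 wild-type libraries of days 9 and 11. It had 0 counts in all 18 chinmoST testis libraries, day 1 included. Against a floor of 3 counts over the 6 chinmoST libraries, wild-type was at least 1310-fold higher at days 9 and 11. Its nearest neighbour among the 200, lncRNA:CR43414, lies 42.2 kb away on the same strand and was at 108 to 125.1 TPM (median 118.2 TPM) in wild-type and 13.94 to 21.85 TPM (median 15.55 TPM) in chinmoST testes, with no overlap (log2 fold change -3.09, SE 0.165, adjusted p = 6.75e-15 by edgeR).

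lncRNA:CR43263 was at 32.99 to 51.84 TPM in wild-type and 0 to 0.07 TPM in chinmoST testes at days 9 and 11 (log2 fold change -11.01, SE 0.395, adjusted p = 2.24e-18 by edgeR), a total of 6 counts over the 6 chinmoST libraries. For lncRNA:CR44081 the ranges were 45.78 to 70.83 TPM (median 55.91 TPM) and 0.31 to 1.21 TPM (median 0.825 TPM), or 84.8-fold (-6.41, SE 0.275, adjusted p = 1.19e-16). Both genes were just as low in chinmoST libraries of day 1, at 0.15, 0.07 and 0 TPM for lncRNA:CR43263 and 0.88, 0.53 and 0.64 TPM for lncRNA:CR44081. Wild-type libraries of that day were at 40.67 to 49.65 TPM and 36.65 to 76.58 TPM.

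The most abundant of this group was lncRNA:CR9284. Wild-type libraries of days 9 and 11 were at 654.7 to 1352 TPM (median 1248 TPM) and chinmoST libraries at 46.32 to 137.5 TPM (median 74.64 TPM), a 16.9-fold difference with no overlap (log2 fold change -4.08, SE 0.233, adjusted p = 2.05e-14 by edgeR). It was also lower at days 3 and 5 (-3.69, SE 0.228, adjusted p = 5.73e-13). As a description, wild-type libraries of day 1 were at 771.8, 1223 and 1339 TPM and chinmoST libraries at 131.2, 91.68 and 68.69 TPM.

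**Figure D4:**
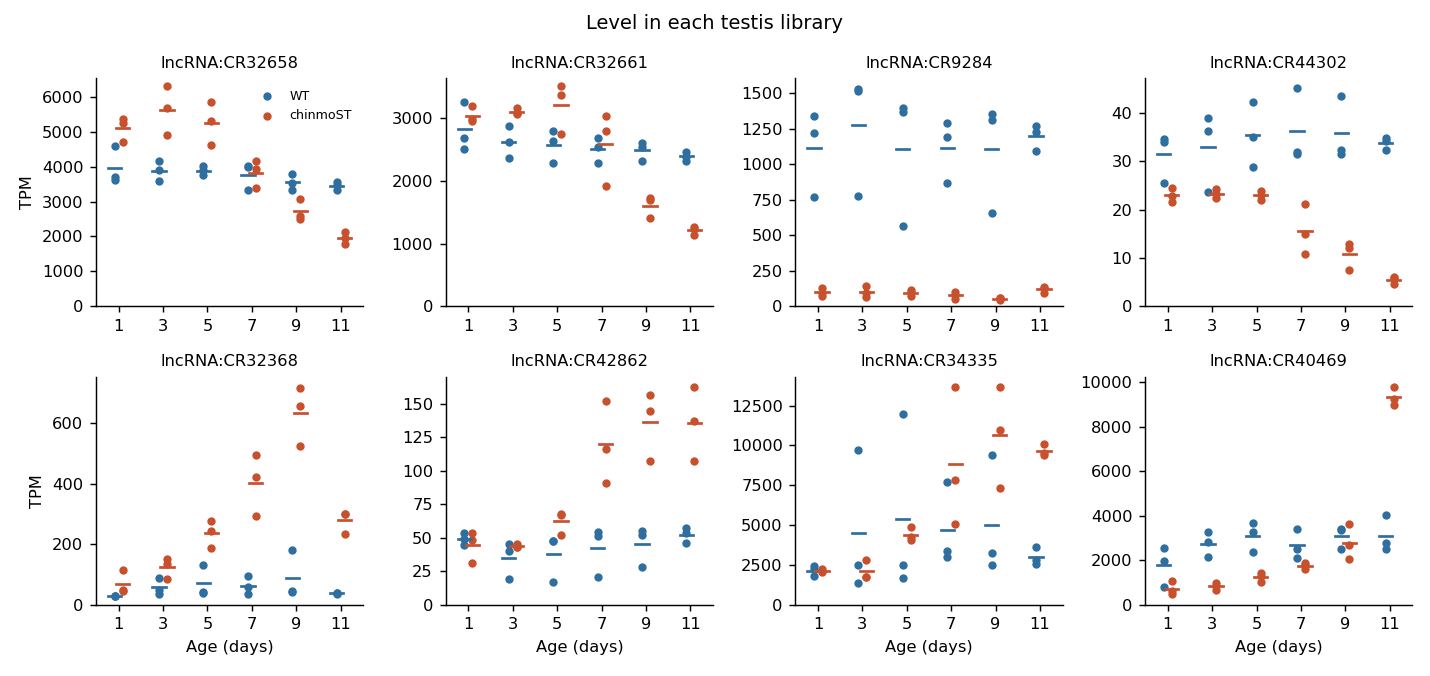
TPM per testis library (vertical axes, linear, from 0) by age in days (horizontal axes) for 8 named genes; each point is a library, blue for wild-type and orange for chinmoST, and short bars are means of 3 libraries. lncRNA:CR9284 is at 46.32 to 137.5 TPM in chinmoST testes of days 9 and 11 against 654.7 to 1352 TPM in wild-type and is low from day 1, whereas lncRNA:CR32658, lncRNA:CR32661 and lncRNA:CR44302 go down from day 7 on and lncRNA:CR32368, lncRNA:CR42862, lncRNA:CR34335 and lncRNA:CR40469 go up. For lncRNA:CR32368 the log2 fold change is already 1.37 at day 1.

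The other large falls at days 9 and 11, each with groups that do not overlap, were those of lncRNA:CR45632 (16.33 to 23.72 TPM against 0 to 0.82 TPM; log2 fold change -6.18, SE 0.420), lncRNA:CR44673 (25.16 to 68.88 TPM against 1.11 to 2.39 TPM; -4.71, SE 0.285) and lncRNA:CR44203 (25.31 to 40.25 TPM against 0.96 to 2.29 TPM; -4.53, SE 0.292). They were followed by lncRNA:CR44597 (30.07 to 56.04 TPM against 2.78 to 5.13 TPM; -3.82, SE 0.182) and lncRNA:CR46043 (37.73 to 55.22 TPM against 3.92 to 7.69 TPM; -3.34, SE 0.152). For 9 of the 10 largest falls, lncRNA:CR44203 being the exception, the genotype difference at days 9 and 11 did not pass the test of a difference from that at days 3 and 5. As a description, the 24 genes lower by 4-fold or more had a median log2 fold change of -1.90 at day 1, -2.37 at day 3 and -2.74 at day 11, while the 200 genes together had 0.05, -0.35 and -1.08 on those days. Whether these genes differ in sequence or copy number between the strains was not tested.

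The 4 genes that rose at days 9 and 11 were less abundant. lncRNA:CR42862, the gene that shares exon sequence with CG33229, was the only one whose groups did not overlap in CPM, and in TPM it was at 28.39 to 57.11 TPM (median 52.87 TPM) in wild-type and at 107.5 to 162.9 TPM (median 140.7 TPM) in chinmoST testes (log2 fold change 1.27, SE 0.207, adjusted p = 3.58e-06 by edgeR). CG33229 itself had a log2 fold change of 2.14. lncRNA:CR32368 was at 34.56 to 180.4 TPM (median 41.88 TPM) in wild-type and 233.9 to 717.4 TPM (median 412.9 TPM) in chinmoST testes (2.55, SE 0.434, adjusted p = 6.55e-06). Its groups were apart in TPM but overlapped in CPM, through wild-type replicate 1 of day 9. As a description, its log2 fold change was already 1.37 at day 1, and it was 0.92 at day 3 and 1.30 at day 5.

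lncRNA:CR43132 was at 27.87 to 67.23 TPM (median 31.52 TPM) in wild-type and 73.77 to 124.7 TPM (median 98.05 TPM) in chinmoST testes at days 9 and 11 (log2 fold change 1.16, SE 0.343, adjusted p = 0.00349 by edgeR). lncRNA:CR43684, named after its values were seen because only 4 genes rose, spread over 1.84 to 133.6 TPM in wild-type and 12.01 to 225.1 TPM in chinmoST testes (2.01, SE 0.900, adjusted p = 0.0456). Its groups overlap almost throughout. lncRNA:CR44389, also chosen after its values were seen, did not pass the test (1.81, adjusted p = 0.221) and spread from 0.07 to 74.21 TPM within wild-type libraries of these days. In the libraries of days 9 and 11, the summed level of 7 accessory gland markers was 140.4 to 1355 TPM in wild-type and 50.17 to 1770 TPM in chinmoST testes. At day 5, wild-type libraries of lncRNA:CR44389 were at 16.91, 262.3 and 80.1 TPM where the summed level of these markers was 413.9, 4126 and 1434 TPM. The part of accessory gland RNA in the levels of lncRNA:CR43684 and lncRNA:CR44389 was not tested.

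Of the genes with a name other than a CR number, lncRNA:Yu was at 85.09 to 122.3 TPM (median 94.43 TPM) in wild-type and 37.42 to 92.09 TPM (median 56.56 TPM) in chinmoST testes at days 9 and 11. It fell, with overlapping groups (log2 fold change -1.03, SE 0.219, adjusted p = 0.000126 by edgeR). lncRNA:TS25 was at 33.55 to 91.63 TPM (median 72.31 TPM) and 22.7 to 49.03 TPM (median 34.87 TPM), and it also fell with overlapping groups (-1.26, SE 0.221, adjusted p = 1.09e-05). Its counts were few, 1212 over the 6 wild-type and 430 over the 6 chinmoST libraries. Of the pair, lncRNA:TS25 was already lower at days 3 and 5 (-1.13, SE 0.221), while lncRNA:Yu did not pass the test there (-0.42, SE 0.216, adjusted p = 0.114).

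In younger flies, more of the 200 genes were lower than higher in chinmoST testes, at a smaller size. Their summed TPM without the short pair was not lower at day 3, at 34740 ± 1680 TPM in chinmoST and 32610 ± 1950 TPM in wild-type testes. At day 5 it was 31390 ± 2220 TPM and 32000 ± 362 TPM. The 10 most abundant of these summed to 24060 ± 1540 against 20220 ± 1650 TPM at day 3 and 21530 ± 2200 against 19620 ± 220 TPM at day 5. At days 3 and 5 (6 against 6 libraries), 94 of the 200 genes were lower in chinmoST testes and 6 were higher by edgeR, where 16.8% and 12.6% of all genes tested were, and the median log2 fold change was -0.55. Libraries lay wholly below wild-type for 71 genes (9.95% of all genes tested) and wholly above for 4 (6.93%). Without wild-type replicate 1 of days 3 to 9 the counts became 78 lower and 23 higher with a median of -0.37. Correction for gene length gave 59 lower and 28 higher, and TPM with a pseudocount of 1 gave 78 lower and 16 higher. The shares of all genes tested under these alternatives are not given here, so these counts have no background to be read against. Of the 94 genes, 91 (96.8%) were also lower at days 9 and 11, where 85.0% of all 200 genes were lower. These 91 are 53.5% of the older list. The same overlap over all genes tested is not given here. None of the 7 spermatid genes passed the test at these ages, 1 of 6 sperm protein genes was lower, and 4 of 11 meiotic arrest genes were lower and none higher (median -0.52). Wild-type replicate 1 of days 3 and 5 had summed spermatid levels of 2970 and 2503 TPM, against 6227 to 6823 TPM in the other wild-type libraries of those days. The part of these cells in the early counts was not tested.

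At day 7 (3 against 3 libraries), 140 genes were lower and 3 higher, against 22.8% and 27.8% of all genes tested, with a median of -1.03. Taken singly, day 3 gave 65 lower and 10 higher genes (12.6% and 6.59% of all genes tested), day 5 gave 109 and 2 (15.1% and 12.7%), day 9 gave 171 and 2 (28.0% and 30.3%) and day 11 gave 156 and 4 (29.9% and 32.1%). These comparisons share one estimate of the spread, and 60 genes (30.0%) were lower at each of the 5 ages from day 3 on, as were 6.14% of all genes tested.

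The next test asked for which genes the genotype difference itself changed between the ages (days 9 and 11 minus days 3 and 5). It moves with the levels of wild-type as well as with those of chinmoST testes. By edgeR 99 of the 200 genes (49.5%) had a lower difference at the older ages and 5 a higher one, where 19.3% and 27.5% of all genes tested did, and the median was -0.64 against 0.18 over all genes. Of the 1797 other genes high in testes and low in ovaries, 1271 (70.7%) had a lower difference and 29 a higher one, with a median of -0.95. That set was chosen on wild-type libraries that this test also used. Without replicate 3 of each group 57 lower and 1 higher genes were left, and without wild-type replicate 1 of days 3 to 9 there were 126 and 5. For these alternatives too, the shares of all genes tested are not given here. Of the 170 genes lower at days 9 and 11, 90 belonged to the 99 and 80 did not pass this test.

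**Figure D5:**
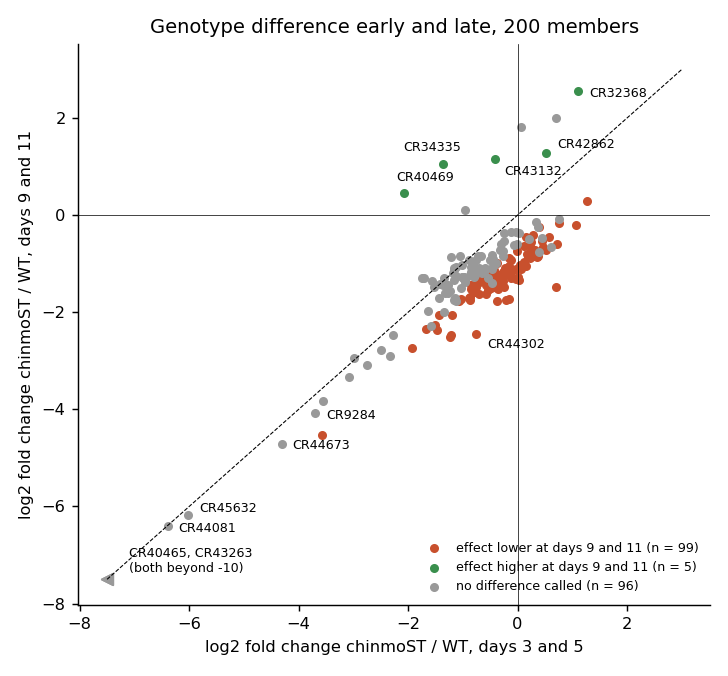
Log2 fold change of each of the 200 genes (chinmoST over wild-type testes, edgeR) at days 3 and 5 (horizontal axis) against days 9 and 11 (vertical axis), with the line of equal values dashed and colours for the test of the difference between the ages. The 99 genes called lower at the older ages lie below the line and the 5 called higher above it, and lncRNA:CR40465 and lncRNA:CR43263, drawn at the lower left corner, are lower than the axes show at both ages.

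The 5 largest decreases of the genotype difference between the ages were in genes whose chinmoST levels lay within or near the range of wild-type at day 3. In chinmoST testes lncRNA:CR44302 was at 24.39, 23.28 and 22.39 TPM at day 3, at 12.98, 12.04 and 7.41 TPM at day 9 and at 4.59, 5.74 and 5.98 TPM at day 11. Wild-type libraries were at 39.07, 23.76 and 36.23 TPM at day 3 and 32.27, 34.34 and 34.85 TPM at day 11. The chinmoST levels went down while those of wild-type did not (change of the genotype difference -1.68 on the log2 scale, SE 0.294, adjusted p = 2.72e-05 by edgeR).

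lncRNA:CR44048 was at 25.67, 19.51 and 22.06 TPM in chinmoST testes at day 3 and at 5.23, 5.93 and 6.48 TPM at day 11, with wild-type at 22.01, 15.36 and 20.15 TPM and then 20.01, 18.31 and 18.65 TPM (change -1.56, SE 0.221, adjusted p = 1.48e-06 by edgeR). lncRNA:CR46095 went from 46.3, 55.99 and 64.49 TPM to 14.33, 16.37 and 16.23 TPM in chinmoST testes (change -1.54, SE 0.219), and lncRNA:CR43821 from 49.16, 44.19 and 52.53 TPM to 14.65, 18.25 and 14.43 TPM (change -1.39, SE 0.272). In each of these genes the chinmoST and wild-type libraries overlapped at day 3 and were apart at day 11. The largest decrease was that of lncRNA:CR45201 (-2.18, SE 0.618, adjusted p = 0.00426), whose wild-type replicate 1 was at 7.11, 8.3, 9.69 and 13.54 TPM at days 3 to 9 against 42.73 to 93.78 TPM in the other libraries of those days. Without those 4 libraries the change was -1.94. Its counts were few, 263 over the 6 chinmoST and 929 over the 6 wild-type libraries of days 9 and 11. Over wild-type testes of days 3, 5 and 7 its mean of 45.8 TPM stood for a pooled 0.997 CPM, so its TPM is uncertain too.

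The most abundant gene, lncRNA:CR32658, followed the same course from a higher start. ChinmoST testes were at 4916, 5691 and 6307 TPM at day 3, at 4615, 5844 and 5312 TPM at day 5 and at 1774, 2125 and 1957 TPM at day 11. Wild-type testes were at 3903, 3594 and 4173 TPM, at 3759, 4014 and 3903 TPM and at 3559, 3334 and 3465 TPM on those days. Its genotype difference was lower at the older ages (change -1.22 on the log2 scale, SE 0.180, adjusted p = 2.86e-06 by edgeR). lncRNA:CR32661 changed to the same degree (-1.21, SE 0.155), and lncRNA:CR44455, which was already lower at days 3 and 5 (-1.33, SE 0.134), did not pass this test (-0.28, SE 0.187, adjusted p = 0.215).

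Only 5 genes went the other way, among them the pair of short X-linked genes. lncRNA:CR40469 was at 985.4, 850.6 and 668.1 TPM in chinmoST testes at day 3, at 3614, 2059 and 2675 TPM at day 9 and at 9762, 9254 and 8991 TPM at day 11, when wild-type libraries were at 4022, 2757 and 2484 TPM. It lay below wild-type at days 3 and 5 (log2 fold change -2.08, SE 0.257, adjusted p = 2.97e-07 by edgeR) and above it at day 11 (1.64), so that the mean over days 9 and 11 did not pass the test (0.45, adjusted p = 0.102). The change between the ages was 2.53 (SE 0.355, adjusted p = 1.27e-06), and 2.21 without wild-type replicate 1 of days 3 to 9.

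lncRNA:CR34335 was at 2130, 2073 and 2220 TPM in chinmoST testes at day 1 and at 10115, 9509 and 9403 TPM at day 11. Its wild-type level turned on the libraries that stand apart, at 9689, 11954, 7675 and 9367 TPM in replicate 1 of days 3, 5, 7 and 9 and at 1363 to 3620 TPM in the other 14 libraries. The change between the ages was 2.41 (SE 0.784, adjusted p = 0.0114 by edgeR) with those libraries and 1.12 (adjusted p = 0.0115) without them. It no longer passed the test without replicate 2 (adjusted p = 0.0529) or without replicate 3 (adjusted p = 0.0638) of each group.

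The other 3 were the risers lncRNA:CR43132 (change 1.57, SE 0.484), lncRNA:CR32368 (1.45, SE 0.583) and lncRNA:CR42862 (0.75, SE 0.289). Without wild-type replicate 1 of days 3 to 9 these values were 0.86, 1.14 and 0.90, all still past the test by edgeR (adjusted p = 0.000784, 0.00571 and 0.000239). Without replicate 3 of each group none of the 3 passed it (adjusted p = 0.0806, 0.123 and 0.230).

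Age by itself was examined between days 11 and 3 (3 against 3 libraries), within each genotype, on libraries that the genotype comparisons also used. In wild-type testes none of the 200 genes passed the edgeR test, where 0.0201% of all genes tested were lower and 0.0469% higher, although 59 (29.5%) had an unadjusted p under 0.05, as did 10.4% of all genes tested, and DESeq2 called 8 (4.0%) lower, where it called 0.726% of all genes lower. The median log2 fold change was -0.33, and libraries of day 11 lay wholly below those of day 3 for 72 genes (8.71% of all genes tested) and wholly above for 1 (10.3%). In chinmoST testes 144 genes (72.0%) were lower at day 11 and 4 higher by edgeR, where 27.3% and 33.1% of all genes tested were, with a median of -1.07. Of the 1797 other genes high in testes and low in ovaries, 1492 (83.0%) were lower and 45 higher, with a median of -1.42. Over the same ages in chinmoST testes all 7 spermatid genes (median -1.60), all 6 sperm protein genes (-1.71) and 5 of 7 accessory gland genes (-4.53) fell, while 3 of 4 genes of germline stem cells and spermatogonia (2.59), all 3 early cyst genes (1.39) and 5 of 8 ovary and follicle cell genes (1.95) rose. Of the 11 meiotic arrest genes, 3 rose and none fell (median 0.12). The part of these cells in the result was not tested.

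The largest falls with age in chinmoST testes were found at both ends of the abundance order. lncRNA:CR32657 was at 5654, 7390 and 6283 TPM at day 3 and 945.3, 1447 and 1265 TPM at day 11 (log2 fold change -2.68, SE 0.619, adjusted p = 0.000457 by edgeR). lncRNA:CR44225 was at 74.7, 66.07 and 75.96 TPM and then 13.87, 14.92 and 13.1 TPM (-2.69, SE 0.610, adjusted p = 0.000372). Both had a higher wild-type replicate 1 at days 3 to 9, and neither passed the genotype test at days 9 and 11. lncRNA:CR45201, lncRNA:CR44302 and lncRNA:CR44048 followed, at -2.55, -2.44 and -2.31.

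The 4 genes that rose with age in chinmoST testes were lncRNA:CR40469 (log2 fold change 3.37, 10.3-fold, SE 0.383, adjusted p = 1.70e-08 by edgeR), lncRNA:CR34335 (2.01, SE 0.802), lncRNA:CR43132 (1.85, SE 0.497) and lncRNA:CR42862 (1.22, SE 0.293). lncRNA:CR42862 was at 43.31, 42.81 and 45.33 TPM at day 3 and 162.9, 107.6 and 137 TPM at day 11, with all libraries of the older age higher. Of the genes far below wild-type at every age, lncRNA:CR9284 (log2 fold change -0.12, SE 0.291, adjusted p = 0.725) and lncRNA:CR44081 (0.20, SE 0.393, adjusted p = 0.669) did not pass the test of age.

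In ovaries, a genotype comparison was possible for 30 of the 200 genes over days 3 to 11, the others being too low to test. Most of its calls were lost without the wild-type libraries that stand apart. By edgeR 7 of the 30 (23.3%) were higher and 2 (6.67%) lower in chinmoST ovaries, where 20.4% and 20.2% of all 11478 genes tested were. These 9 are 4.5% of all 200 genes, and leaving out each replicate number in turn gave 2.0% to 7.0% of the 200. Without the 5 libraries that stand apart, over days 3 to 9 since no wild-type library of day 11 was left, 3 genes were higher and 1 lower of 123 tested, where 5.25% and 2.30% of all 12867 genes were, and 1 of the 9 genes kept its call. In that fit wild-type ovaries of day 7 kept 1 library. The filter goes by the smallest group, so it then asked for only 1 library above its limit. Wild-type replicate 1 of day 1 stayed in the fit, with the testis transcripts described below. The part of these points in the lost calls was not tested. Among the marker lists, all 4 muscle genes were higher in chinmoST ovaries with all libraries (median 1.52), as were 2 of 3 early cyst genes (0.61), and the part of these cells was not tested.

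That gene was lncRNA:CR32368, which also rose in chinmoST testes. It was at 36.02 to 104.0 TPM (median 48.88 TPM) in the 15 chinmoST and 0.91 to 23.71 TPM (median 9.57 TPM) in the 13 wild-type ovary libraries (log2 fold change 2.03, SE 0.301, adjusted p = 2.69e-05 by edgeR), and 2.37 (adjusted p = 0.00055) without the 5. The groups were apart in TPM but overlapped in CPM, at 4.95 to 21.2 CPM and 0.131 to 6.75 CPM.

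The short genes passed the test only with the libraries that stand apart. lncRNA:CR40469 was at 15760 to 32854 TPM in those 5, at 1076 to 9490 TPM (median 4208 TPM) in the other 8 wild-type libraries and at 1429 to 7622 TPM (median 2119 TPM) in the chinmoST libraries, which overlap the 8 widely. Its log2 fold change was -3.06 (SE 0.531, adjusted p = 0.000121 by edgeR) with all libraries and -1.38 (adjusted p = 0.0644) without the 5. For lncRNA:CR34335 the values were -1.47 (SE 0.379, adjusted p = 0.00258) and -0.34 (adjusted p = 0.696).

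The call of lncRNA:CR42862 was lost as well. It was at 10.01 to 16.23 TPM in the 5 libraries, 102.5 to 291.4 TPM in the other 8 and 46.54 to 300.2 TPM in chinmoST ovaries. It was higher in chinmoST ovaries with all libraries (log2 fold change 1.17, SE 0.376, adjusted p = 0.0112 by edgeR) and did not pass the test without the 5 (0.18, adjusted p = 0.862). The abundant testis genes lncRNA:CR32660 (3.29) and lncRNA:CR42767 (1.64) and the less abundant lncRNA:CR45571 (1.42), lncRNA:CR43174 (1.40) and lncRNA:CR43839 (1.33) made up the rest of the 7. Without the 5 libraries they were at 2.60, 1.22, 0.59, 0.74 and 0.85, and none passed the test (adjusted p = 0.0925, 0.0625, 0.563, 0.632 and 0.344 by edgeR). Over all 18 chinmoST ovary libraries, the list without the short pair summed to at most 404.3 TPM, far under the level of any testis library.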

How the data were processed

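Samples were grouped by the tissue, genotype and day in the labels, and replicate numbers came from the titles. The titles give day 0 where the labels give day 1, and the label was used. No source says that replicates came from separate cultures, so p-values measure the spread between samples, which may be technical. Per the labels, the authors trimmed reads of 100 nt with Trim Galore 0.6.4, checked them with FastQC 0.11.9 and ran RSEM and Bowtie2 on build dm6; the version of these 2 and the strand setting are not given in the sources used here. The deposited values are RSEM expected counts per gene, not normalized, and TPM, with FPKM and gene lengths computed by the authors. TPM served for levels, lengths for one alternative, and FPKM was not used. Symbols and coordinates came from the Ensembl BDGP6 annotation, which held 17710 of the 17807 gene IDs.

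Expected counts were rounded and tested with edgeR 4.0.16 (R 4.3.3): TMM scaling, filterByExpr, a quasi-likelihood F-test with 1 coefficient per group and Benjamini-Hochberg adjustment over all genes tested. A gene was called at an adjusted p under 0.05 and a fold of at least 1.5. Testis comparisons used all 36 testis libraries, the tissue comparison all 69 and the ovary comparison all 33. Non-overlap refers to TMM-scaled CPM. A floor of 3 counts was 0.0165 to 0.0924 CPM in testes and covers counting error only. The scripts were tested on simulated data with known changes. Alternatives were DESeq2 1.42.0, limma 3.58.1 on log2(TPM + pseudocount), scaling by library size alone, a length correction, no filter, fewer libraries, left-out replicates, left-out libraries that stand apart and a replicate block.

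The genes and lists were chosen with earlier results of these data known. Named genes are the 10 most abundant, the 10 largest falls at days 9 and 11 without exon overlap and with groups apart (no rise met this), the 8 highest in ovaries, the 5 largest called changes in each direction with age and between ages, those with a name other than a CR number, and those at the limit of the rule.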

Additional observations from a re-analysis of the deposited data

Results flagged for a closer look

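In 44 sets of 6 testis libraries, each set being 1 gene in 1 group, 4 held a library far from the others. Chance gives about 2.2 for independent sets, but these sets share libraries, so that number is no yardstick. All 4 were wild-type replicate 1 of day 5 or day 9, which are among the libraries that stand apart. At days 9 and 11 wild-type replicate 1 of day 9 was high for lncRNA:CR32657, at 5262 TPM with the next library at 2514 TPM and the lowest at 1595 TPM. The same library was high for lncRNA:CR34335, at 9367 TPM with the next at 3620 TPM and the lowest at 2497 TPM, and low for lncRNA:CR32690, at 996 TPM against 1272 to 1419 TPM. At days 3 and 5 wild-type replicate 1 of day 5 was low for lncRNA:CR42767, at 1214 TPM against 1501 to 1637 TPM.

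The genotype difference in testes was itself different between days 9 and 11 and days 3 and 5 for 104 genes by edgeR, lower at the older ages for 99 and higher for 5. The changes on the log2 scale were -2.18 (SE 0.618) for lncRNA:CR45201, -1.68 (SE 0.294) for lncRNA:CR44302, -1.56 (SE 0.221) for lncRNA:CR44048, -1.54 (SE 0.219) for lncRNA:CR46095 and -1.39 (SE 0.272) for lncRNA:CR43821. On the higher side they were 2.53 (SE 0.355) for lncRNA:CR40469, 2.41 (SE 0.784) for lncRNA:CR34335, 1.57 (SE 0.484) for lncRNA:CR43132, 1.45 (SE 0.583) for lncRNA:CR32368 and 0.75 (SE 0.289) for lncRNA:CR42862. No explanation of these values was tested.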

How the results depend on the processing

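Of the values of single genes under an alternative, 579 kept their direction and call, 53 lost the call, 8 gained one and 6 changed direction. All 6 that changed direction were of wild-type ovaries against testes. Without the 5 wild-type ovary libraries that stand apart, an alternative added after the data were seen, lncRNA:CR40469 was at -0.42 and lncRNA:CR34335 at -0.31 (log2), with 99.0% of the genes called between tissues and 2.0% between genotypes in ovaries. Leaving out each replicate number in turn, lncRNA:CR34335 ranged from -0.29 to 3.34 and lncRNA:CR42862 from -0.29 to 1.27. Under the length correction lncRNA:CR32582 was at 1.38 and lncRNA:CR32368 at 0.47, where the main values were -2.86 and -3.86. At days 9 and 11, 87.0% of the 200 genes were called; 171 of these 174 genes kept their call without wild-type replicate 1 of days 3 to 9 and 124 under the length correction. Leaving out each replicate number in turn gave 82.5% to 88.5% at days 9 and 11, 46.5% to 55.0% at days 3 and 5 (50.0% with all), 63.5% to 71.0% at day 7 (71.5%), 29.0% to 66.0% for the change between the ages (52.0%), 60.0% to 76.0% for age in chinmoST testes (74.0%), 99.0% to 99.5% between tissues (99.5%) and 2.0% to 7.0% in ovaries (4.5%). In ovaries the share was also 7.0% with no filter, 2.5% for TPM with a pseudocount of 1 and 2.0% for that without a filter. For age in wild-type testes it was 0% by edgeR and 4.0% by DESeq2. These shares are of the 200 genes, and those of all genes tested under each alternative are not given beside them. Scaling by library size alone moved the median of all genes by 0.197 at days 9 and 11 and by 0.377 for age in chinmoST testes (log2), and called 81.5% and 54.5% of the genes. Summed TPM of chinmoST as a percentage of wild-type at days 9 and 11 was 90.4% over all 200 genes and 95.8% without genes of overlapping exons, both with the short pair kept. It was 58.8% without the short pair, an alternative added after the data were seen. Without the pair and the overlapping genes, the mean sum at day 9 was 17970 TPM in chinmoST and 27070 TPM in wild-type testes. At day 11 it was 13820 TPM and 25760 TPM. The cause of these changes was not tested.

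Replicate numbers did not meet the criterion for pairing, a correlation over 0.1 in every same-numbered pair of testis samples. Their deviations had a mean correlation of 0.048, all 3 pairs were over 0.1 at days 3 (0.192 to 0.265) and 11 (0.126 to 0.341) but not at the other days, where the lowest was -0.522, and 19 of 36 samples correlated best with a sample of their own number. With a replicate block 87.5% of the genes were called at days 9 and 11, 50.5% at days 3 and 5, 74.0% at day 7, 56.5% for the change between the ages, 75.0% for age in chinmoST testes, 100% between tissues, 5.0% in ovaries and 0% for age in wild-type testes. In ovaries 170 of the 200 genes were too low to be tested, at a median of 78190222 counts per library against 84230826 in testes.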

Other observations

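One ovary library held testis transcripts. In wild-type replicate 1 of day 1, which was in no contrast but in the fits that set scaling and spread, lncRNA:CR32658 was at 60.47 TPM and lncRNA:CR32657 at 68.69 TPM, while lncRNA:CR32658 was at 1.87 TPM or less in the other wild-type ovary libraries. Its summed level over the list without lncRNA:CR34335 and lncRNA:CR40469 was 843.5 TPM, against 58.27 to 353.0 TPM in the other 14. The source of this RNA was not tested.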
